A study of Mus musculus with 16 samples.

Results

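The albumin gene cluster was followed through 4 genes, Alb, Afp, Afm and Gc, taken by gene name from a table of 53379 genes. All 4 were in the table and all 4 passed the filter on low values (at least 1 FPKM in at least 2 libraries), which left 14913 genes for testing. FPKM are fragment counts scaled by gene length and by the mapped fragments of the library, so that levels are per length. The libraries came from livers of Mettl3 cKO mice (Mettl3 flox/flox carrying Alb-Cre) and of Control mice labelled wild type, on a C57BL/6J background, at P1, W1, W2 and W4 (1 day and 1, 2 and 4 weeks after birth), with 2 individuals for each of the 8 groups. Cre was driven by the albumin enhancer and promoter, the regulatory sequence of one of the genes described here, from a transgene in the H11 locus, and the flanked exons were 2 to 4 of Mettl3, which encodes the catalytic subunit of the m6A methyltransferase. The question was how these genes changed from birth to 4 weeks when Mettl3 was deleted in hepatocytes.

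Albumin, alpha-fetoprotein, afamin and the vitamin D-binding protein (encoded by Gc) are related secreted carrier proteins that arose by duplication of one ancestral gene and are made mainly by hepatocytes. Albumin carries fatty acids, bilirubin and hormones, afamin binds vitamin E and Wnt proteins, and the Gc protein carries vitamin D metabolites and binds actin. Afp is the main serum protein gene of the fetal liver and yolk sac and is shut off after birth while Alb stays on, so the pair is a textbook case of a developmental switch between neighbouring genes. Liver-enriched factors of the HNF4, FOXA and C/EBP families activate the locus, and in mice Zhx2, Zbtb20 and Zfhx3 are known as repressors of Afp.

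On chromosome 5 of mm10 the genes lay in the order Gc, Alb, Afp and Afm (GENCODE M21). Gc was at chr5:89417522-89457898 on the minus strand. The other members were on the plus strand, Alb at chr5:90460897-90476602, Afp at chr5:90490737-90508907 and Afm at chr5:90518932-90553543. Alb and Afp were 14134 bases apart and Afp and Afm 10024 bases, whereas Gc was 1002998 bases from Alb. The antisense gene Gm43449 lay over the 3′ part of Afp and Gm42109 over the end of Afm.

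The promoters are shown because all 4 held the same short word, the word GTTAAT, which reads as ATTAAC on the other strand, in the window of 250 bases before to 50 after the RefSeq start (GRCm38.p6, 4 of 4 members matched). Capitals mark this word, and each run is 30 bases of the gene's own strand, 5′ to 3′. Distances are counted from the RefSeq start, which for Alb, Afp and Afm is not the base at which the GENCODE gene given above begins.
Gc, chr5:89457933-89457962, minus strand, 52 bases before the start: cccagtgacaaaGTTAATgattaaaacctc
Alb, chr5:90460826-90460855, plus strand, 32 bases before the start: gaggtaagtatgGTTAATgatctacagtta
Afp, chr5:90490597-90490626, plus strand, 105 bases before the start: gacccctgctctGTTAATtattggcaaatt
Afm, chr5:90518799-90518828, plus strand, 138 bases before the start: atttttcccctaGTTAATaattacctagaa
Afm, chr5:90518864-90518893, plus strand, 73 bases before the start: tttcagaaatagATTAACtaagttactttt
Of 32851 promoter windows of the same length, 7.1% held the word on either strand. In each member 1 copy read on as GTTAATNAT, a longer word chosen after the windows had been read, which 0.801% of the promoter windows held. C/EBP (TTNNGNAA) and HNF4 (CAAAG) words were found in 4 of 4 members, but also in 40.7% and 53.9% of promoter windows. These matches are descriptions of letters, not of bound sites, and their part in the levels given below was not tested.

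A FOXA word (TGTTTNC, or GNAAACA on the other strand) was found in Alb and Afp and in 20.5% of promoter windows, and no match in these windows was seen for Afm and Gc. It is shown in capitals for this neighbouring pair.
Alb, chr5:90460731-90460760, plus strand, 128 bases before the start: agctccagatgGCAAACAtacgcaagggat
Afp, chr5:90490648-90490677, plus strand, 55 bases before the start: atagagtcataTGTTTGCtcactgaaggtt

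Across libraries the estimated depth was 10.65 to 15.3 M reads, and mitochondrial genes took 14.8 to 59.0% of the summed FPKM, most of all in the 2 W2 Control libraries (58.1 and 59.0%, against 25.2 and 43.8% in W2 cKO). Sex read from the data was the same as genotype at W1, with both cKO libraries female and both Control libraries male, so sex and genotype cannot be told apart there (of 5 genes read for sex, 1 rose and 4 fell at W1). At P1, 3 of 4 libraries were female, both cKO ones among them, and the 4 libraries of W2 and the 4 of W4 were male. P1 Control was thus the only group with both sexes, and any term for sex in the fit rests on its 2 libraries. Such a term cannot separate sex from genotype at W1. Both cKO libraries were female at P1 and male at W4. Sex and age therefore cannot be told apart in the cKO change of any member between P1 and W4. Mettl3 over the whole gene was not lower in the libraries labelled cKO but higher at each of the 4 ages, without overlap. At W4 it was at 9.20 and 9.25 FPKM in cKO, against 7.83 and 6.40 FPKM in Control. By limma no age gave an adjusted p under 0.05 (0.0894 to 0.497), and at single ages 45.2 to 78% of all genes did not overlap. A gene total cannot check the loss of a few exons, and the genotype is therefore taken from the labels.

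At W4 the members went separate ways. Afp was 131-fold higher in cKO than in Control livers by mean FPKM, Alb was at 0.397 and Afm at 0.164 of the Control mean, and Gc was at 0.939 of it with overlapping groups. By limma with Benjamini-Hochberg adjustment over 14913 genes, 3 of 4 members passed an adjusted p of 0.05 at W4, where 59.2% of all genes did (46.9% higher and 12.4% lower). The count is thus near the background, and the sizes, not the calls, set Afp apart: its log2 fold change was the second highest of 14913. Bulk livers were measured, so fewer hepatocytes and less of a transcript per hepatocyte cannot be told apart in any of these values.

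**Figure D1:**
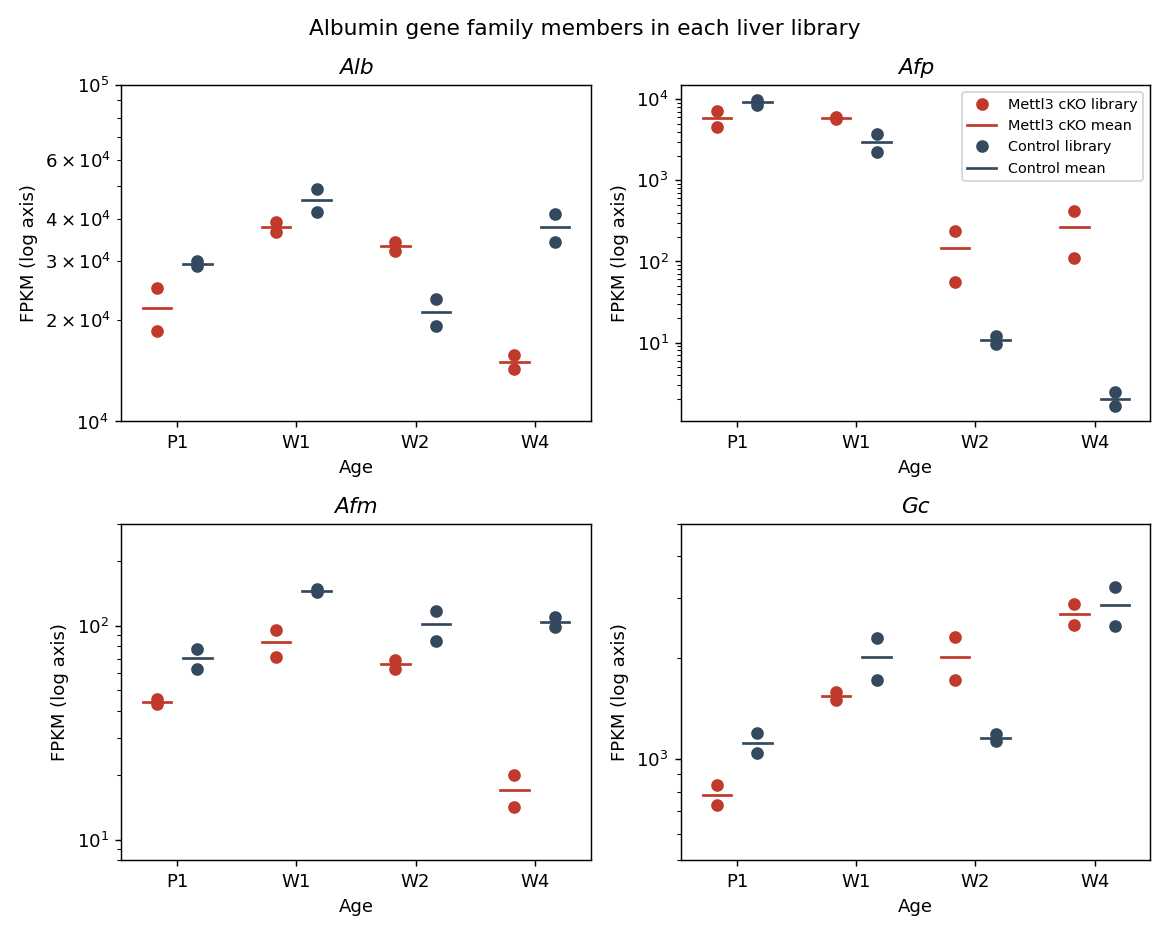
FPKM of Alb, Afp, Afm and Gc (log axes) at each age, with 1 point per library and a line for the mean of 2 libraries, Mettl3 cKO left of Control. At W4, Afp was at 423 and 112 FPKM in cKO and at 1.64 and 2.43 FPKM in Control, while Alb and Afm lay lower in cKO and Gc overlapped.

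Afp, the fetal member, was at 4549 and 7252 FPKM in P1 cKO livers, against 8537 and 9748 FPKM in P1 Control livers. At W1 it was at 5800 and 6091 FPKM in cKO, against 3735 and 2262 FPKM in Control. The groups did not overlap at either age, with cKO below Control at P1 and above it at W1.
By W2 Afp was at 239 and 55.8 FPKM in cKO, against 12 and 9.63 FPKM in Control. At W4 it was at 423 and 112 FPKM in cKO, against 1.64 and 2.43 FPKM in Control, values that rest on an estimated 71.0 and 113 reads in the Control libraries. All cKO libraries of W2 and W4 were above all Control libraries of the same age. The cKO libraries also differed among themselves, replicate 1 being 4.28-fold over replicate 2 at W2 and 3.78-fold at W4, and the 2 ages overlapped.

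On the scale of log2(FPKM + 1), used for all fold changes in the fits, Afp differed between cKO and Control by -0.67 at P1 (SE 0.63, limma adjusted p = 0.722) and by 1.03 at W1 (adjusted p = 0.412). The differences rose to 3.31 at W2 (SE 0.63, 95% interval 1.95 to 4.68, adjusted p = 0.00219) and 6.18 at W4 (SE 0.63, 95% interval 4.82 to 7.55, adjusted p = 6.04e-06). Leaving out single libraries moved the W4 value between 5.23 and 7.14 and the W2 value between 2.27 and 4.35, with adjusted p under 0.05 each time. The genotype difference depended on age (joint test of the 4 ages, adjusted p = 0.000503), a test that 49.6% of all genes passed.

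Seen along development, Afp in Control livers fell by 11.57 on the log2 scale between P1 and W4 (SE 0.63, adjusted p = 2.16e-08), the largest fall among the 14913 genes tested. In cKO livers it fell by 4.71 (adjusted p = 5.32e-05), and the 2 changes differed by 6.85 (SE 0.89, adjusted p = 0.000103). In these comparisons 57.1% of genes passed in cKO and 54.4% in Control, and 46.8% passed for the difference. The W4 mean was 4.53% of the P1 mean in cKO and 0.0222% of it in Control. Both genotypes therefore lost most of their Afp transcript, and the cKO livers held a level that was rank 93 and rank 472 among nuclear genes in the 2 libraries, against rank 9881 and rank 8481 in Control.
Between W1 and W2 alone the mean fell 40.3-fold in cKO and 277-fold in Control. The cKO libraries were female at W1 and male at W2, while the Control libraries were male at both ages. Sex and age therefore cannot be told apart in that cKO fall, nor sex and genotype where the falls are compared. Between W2 and W4 the mean was 1.81-fold higher at W4 in cKO, within the spread of the libraries, and fell a further 5.32-fold in Control.

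Alb, the adult counterpart, was at 18582 and 24871 FPKM in P1 cKO livers, against 28890 and 30008 FPKM in Control. At W1 it was at 39035 and 36633 FPKM in cKO, against 41958 and 49019 FPKM in Control. In both cases cKO lay below Control without overlap.
At W2 the order was turned round, with 34121 and 32208 FPKM in cKO, against 19207 and 23173 FPKM in Control. At W4 Alb was at 14347 and 15710 FPKM in cKO, the lowest values of the 16 libraries, against 41402 and 34256 FPKM in Control. By FPKM the Control livers had their low at W2 and the cKO livers at W4. As a share of nuclear FPKM, however, the Control low was at P1 (6.51 and 6.40%). The W2 Control libraries were those with the most mitochondrial FPKM.

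The fitted difference of Alb was -0.45 at P1 (SE 0.29, adjusted p = 0.587), -0.26 at W1 (adjusted p = 0.693) and 0.65 at W2 (adjusted p = 0.114). Only at W4 did it pass, with -1.33 (SE 0.29, 95% interval -1.96 to -0.69, limma adjusted p = 0.00186), and it did not pass there without the filter on low values (adjusted p = 0.582) or when W4 was fitted alone (adjusted p = 0.0641). The dependence on age passed (adjusted p = 0.0121), though not without the filter (0.876) or with 0.1 in place of 1 FPKM added (0.0745).
As a share of the FPKM of all nuclear genes, Alb made up 3.56 and 3.68% in W4 cKO livers, against 9.15 and 8.27% in W4 Control livers. At W2 that share was 7.81 and 8.86% in cKO, against 6.63 and 8.51% in Control, so that the groups overlapped once mitochondrial genes were left out. Alb was the highest nuclear gene in 11 of 16 libraries and was the third in both W4 cKO libraries, below Ahsg, which encodes the plasma protein fetuin-A, and the small RNA gene Gm23935.

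Afm, the least expressed member at P1 and W1, was at 43.0 and 45.2 FPKM in P1 cKO livers, against 62.6 and 78.1 FPKM in Control. At W1 it was at 71.7 and 95.4 FPKM in cKO, against 143 and 148 FPKM in Control. It was the only member with cKO below Control at all 4 ages and with no overlap at any of them.
W2 values were 69.0 and 63.1 FPKM in cKO, against 85.3 and 118 FPKM in Control. W4 values were 14.2 and 19.9 FPKM in cKO, against 109 and 98.3 FPKM in Control. The gap was widest at W4.

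For Afm the fitted difference at W4 was -2.56 (SE 0.21, 95% interval -3.02 to -2.09, limma adjusted p = 1.28e-06), and it passed under the alternatives run and with each library left out. At P1 it was -0.65 (adjusted p = 0.308). The W1 difference of -0.81 stood at an adjusted p of 0.0498 and did not pass once any single W1 library was left out (0.0739 to 0.286). With a term for sex the W1 value was -1.12 (adjusted p = 0.411), but that term comes from the P1 Control pair and cannot separate sex from genotype at W1. The W2 difference of -0.59 missed the threshold (adjusted p = 0.0529), and passed on the nuclear scale, where each library is divided by the summed FPKM of its nuclear genes (-1.10, adjusted p = 0.00437), and without W2 Control replicate 1 (-0.82, adjusted p = 0.0388).
Between P1 and W4 Afm fell by 1.34 in cKO (adjusted p = 0.000206) and was higher by 0.56 at W4 in Control (adjusted p = 0.0398). Sex and age cannot be told apart in the cKO change. With the term for sex, taken from the P1 Control pair, the cKO change was -1.02 and did not pass (adjusted p = 0.0569). The Control change passed in 1 of 4 fits with a library left out, failing without P1 Control replicate 1, W4 Control replicate 1 or W4 Control replicate 2. The changes differed by -1.90 between the genotypes (SE 0.30, adjusted p = 0.000393), and the joint test over ages gave an adjusted p of 0.000756.

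Gc, the distant member, was at 727 and 834 FPKM in P1 cKO livers, against 1039 and 1191 FPKM in Control. At W1 it was at 1494 and 1581 FPKM in cKO, against 1716 and 2289 FPKM in Control. Like Alb, it lay lower in cKO at these ages without overlap.
At W2 Gc was at 2296 and 1712 FPKM in cKO, against 1127 and 1185 FPKM in Control. At W4 it was at 2496 and 2894 FPKM in cKO, against 3251 and 2488 FPKM in Control. The W4 groups overlapped, and it was the only age and member in which they did.

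No difference was detected for Gc at W4 (-0.08, SE 0.24, 95% interval -0.59 to 0.43, limma adjusted p = 0.792), and the sign turned without W4 Control replicate 1 (0.11) or W4 cKO replicate 1 (0.03). At P1 and W1 the differences were -0.51 (adjusted p = 0.448) and -0.37 (adjusted p = 0.439). The W2 difference of 0.78 passed (SE 0.24, adjusted p = 0.0263), but was 0.27 on the nuclear scale (adjusted p = 0.284) and 0.40 after median-of-ratios rescaling (adjusted p = 0.176). It also did not pass without W2 Control replicate 1, W2 Control replicate 2 or W2 cKO replicate 1.
Gc was the only member that rose with age in both genotypes, by 1.79 between P1 and W4 in cKO (adjusted p = 4.85e-05) and by 1.35 in Control (adjusted p = 0.000381). The difference between these changes, 0.43, was not past the threshold (SE 0.33, adjusted p = 0.303). Its joint test over ages had an adjusted p of 0.0234, which did not hold on the nuclear scale (0.172) and in 5 of 16 fits with a library left out.

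**Figure D2:**
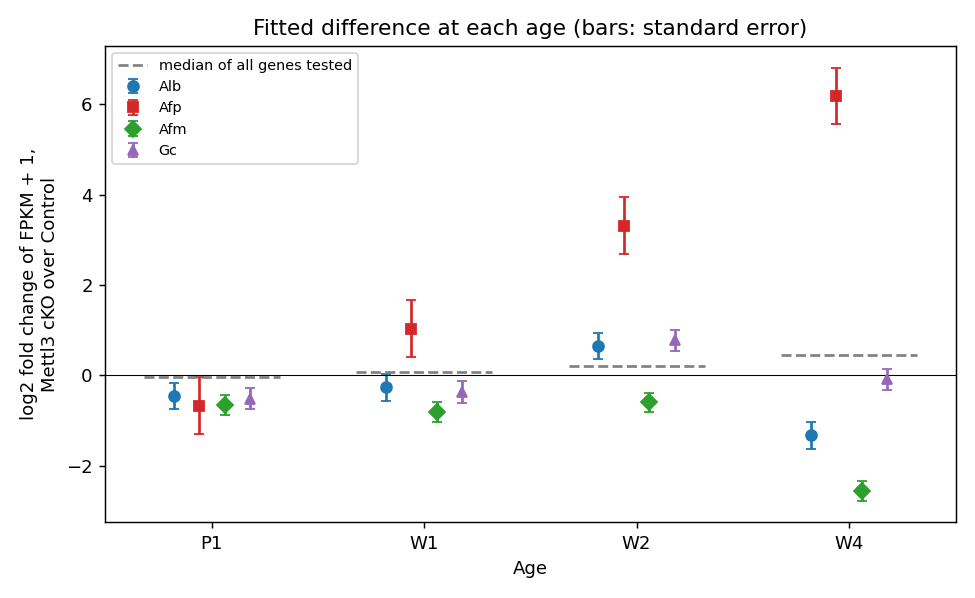
Log2 fold change of FPKM + 1, Mettl3 cKO over Control, at each age from limma for Alb, Afp, Afm and Gc, with bars of 1 standard error and a dashed line at the median of all genes tested. The 4 members lay close together at P1 (-0.67 to -0.45) and far apart at W4 (-2.56 to 6.18).

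Read age by age, the 4 members started alike. At P1 all 4 were lower in cKO without overlap of the groups, where 45.2% of genes did not overlap, and 0 of 4 passed the test, where 0.168% of genes passed. At an unadjusted p under 0.05, Afm (0.00924) and Gc (0.049) were among 1652 genes. The summed level of 11 genes of red cell precursors, which fill the newborn liver, was 18736 to 20530 FPKM in P1 cKO livers, against 23134 to 24854 FPKM in P1 Control livers. The 14 hepatocyte genes summed to 3624 to 3732 FPKM in P1 cKO, against 4671 to 4832 FPKM in P1 Control. The part of the mitochondrial share and of these 2 sums in the P1 levels was not tested.
At W1 all 4 were again without overlap, with Afp now on the other side (background 53.8%), and 1 of 4, Afm, passed (background 4.83%). At W2 all 4 were without overlap (background 63.5%), Alb, Afp and Gc being higher in cKO and Afm lower. Afp and Gc passed, 2 of 4, where 29.1% of genes passed (24.6% higher). At W4, 3 of 4 did not overlap (background 78%). The median log2 fold change of all genes was -0.03 at P1, 0.07 at W1, 0.22 at W2 and 0.44 at W4.
Median-of-ratios rescaling sets that median to about 0. On this scale the W4 differences were 5.63 for Afp, -1.96 for Alb, -3.16 for Afm and -0.71 for Gc, and Gc then passed (adjusted p = 0.015). Averaged over the 4 ages, cKO minus Control was 2.47 for Afp (adjusted p = 5.88e-05), -0.35 for Alb (0.0646), -1.15 for Afm (5.21e-06) and -0.05 for Gc (0.765), where 50.4% of genes passed. That average includes W1, where sex and genotype cannot be told apart.

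Setting each member against Alb of the same library shows how the proportions of the family changed, free of any scaling between libraries. For 1000 FPKM of Alb there were 29.5 and 7.12 FPKM of Afp in W4 cKO livers, against 0.0396 and 0.0709 FPKM in W4 Control livers. Gc was at 174 and 184 FPKM per 1000 FPKM of Alb in W4 cKO livers, against 78.5 and 72.6 FPKM in W4 Control livers, so that the ratio was 2.37-fold higher in cKO without overlap while Gc itself overlapped.
The ratio of Afm to Alb at W4 averaged 1.13 ± 0.199 per 1000 in cKO and 2.76 ± 0.160 per 1000 in Control (SD, n = 2 each). Relative to Alb, Afm was thus at 0.409 of the Control ratio, without overlap. The same ratio at W2 was 1.99 ± 0.0455 in cKO and 4.76 ± 0.448 in Control (SD, n = 2 each), again without overlap, at an age when the FPKM of Alb was higher in cKO. At P1 the ratios of Afm and of Gc to Alb overlapped between the genotypes. No test was run on these ratios.

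**Figure D3:**
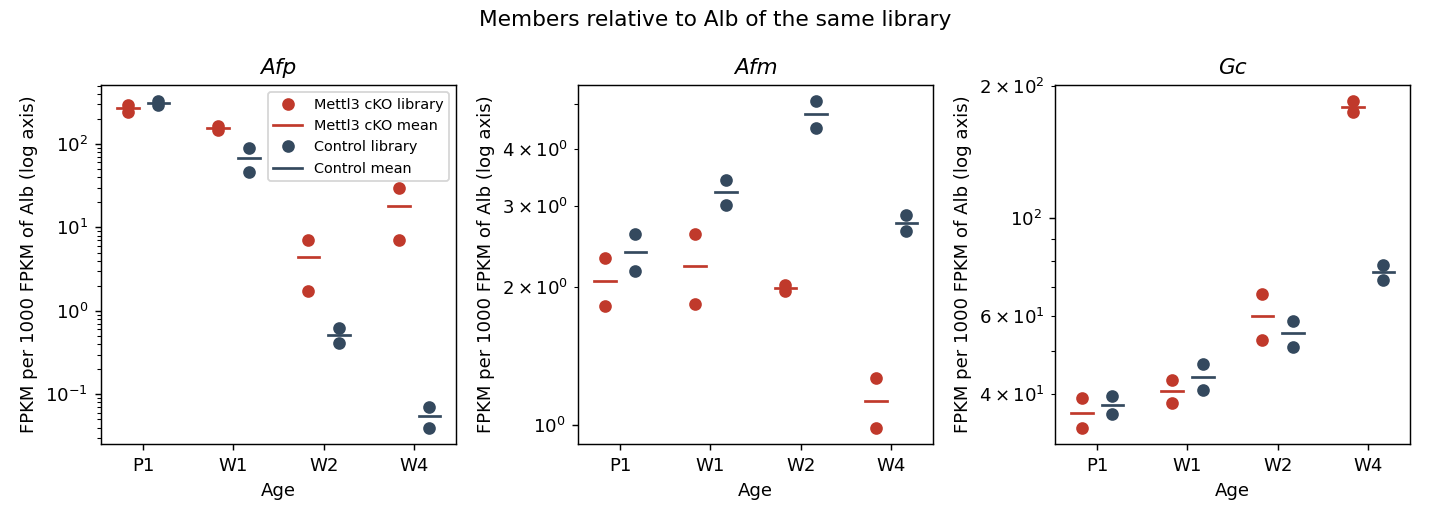
Afp, Afm and Gc as FPKM per 1000 FPKM of Alb in the same library (log axes) at each age, 1 point per library and a line for the mean of 2, Mettl3 cKO left of Control. At W4 Gc was at 174 and 184 in cKO and at 78.5 and 72.6 in Control, and at P1 the groups of Afm and of Gc overlapped.

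Over the 16 libraries Alb went with Afm (Pearson r = 0.805 of log2 values), while r was 0.225 with Gc and 0.11 with Afp, and Afp and Gc ran against each other (r = -0.489). These are descriptions over 16 libraries that share ages and genotypes. Afp covered a 5946-fold range from the lowest to the highest library, Afm 10.4-fold, Gc 4.47-fold and Alb 3.42-fold.
Among 4141 genes with a mean of at least 10 FPKM, the pattern most like that of Alb was that of Pon1 (r = 0.95), the serum paraoxonase, followed by Gstz1, Vtn, Gchfr and Upb1. Those most like Afm were Hsd3b2 (0.958), Gamt, BC024386, Proz and Uroc1. These genes were picked for their course over the same libraries, so their differences at W4 are no separate result. For Afp they were Fcer1g (0.973), Spi1, Tmsb4x, Slc16a1 and Mcm6. Fcer1g and Spi1 are genes of myeloid cells and Mcm6 is a DNA replication helicase subunit. Sqor (0.96), C4bp, Aldh2, Acsf2 and Hdac11 were most like Gc.

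In the 500 kb on either side of the members, 37 genes were annotated, members included, and 17 of them were tested. Next to Afm lies 5830473C10Rik (RefSeq symbol Albfm1), a further gene of the albumin family, at chr5:90561107-90597871. It was at 4.76 and 5.27 FPKM in W4 cKO livers, against 19.3 and 25.9 FPKM in W4 Control livers, a fitted difference of -1.96 (SE 0.19, limma adjusted p = 3.51e-06). The groups lay far apart in the direction of Alb and Afm, but at P1 they lay the other way, with 48.1 and 35.7 FPKM in cKO, against 21.5 and 25.1 FPKM in Control.
The processed pseudogene Gm2602, between Afm and that gene, was at 0 and 0.163 FPKM in W4 cKO livers, against 7.40 and 10.03 FPKM in Control. It was lower at W2 and W4 (-1.75 and -3.16, adjusted p = 0.0015 and 4.72e-06), and Gm42109, which overlaps the end of Afm, was lower at the same ages (-1.49 and -1.68, adjusted p = 0.00166 and 0.000201). At W1 both passed as well (-1.89 for Gm2602, adjusted p = 0.00512, and -1.69 for Gm42109, adjusted p = 0.00439), but neither did with the term for sex (0.241 for Gm2602 and 0.345 for Gm42109), nor Gm2602 without W1 Control replicate 1 (0.0535). Gm43449, antisense to Afp, was listed at 0 in both W4 cKO libraries, against 1.45 and 6.75 FPKM in Control, opposite to Afp. Gm42109 also spans Gm2602 and overlaps 5830473C10Rik, both on the opposite strand. Neither the labels nor the methods say whether counting used the strand, so reads of overlapping genes may not be separable.
Farther out the direction was mixed. Slc4a4, a bicarbonate cotransporter gene beyond Gc, was higher at W4 (1.83, adjusted p = 6.43e-05), as was Ankrd17 (0.95, adjusted p = 0.000265), and Gm9958 was lower (-0.90, adjusted p = 0.000641). Cox18, which lies beyond Ankrd17 and Gm9958 from Alb, and Rassf6, which lies beyond 5830473C10Rik from Afm, did not pass (0.22 and -0.10, adjusted p = 0.283 and 0.566).

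**Figure D4:**
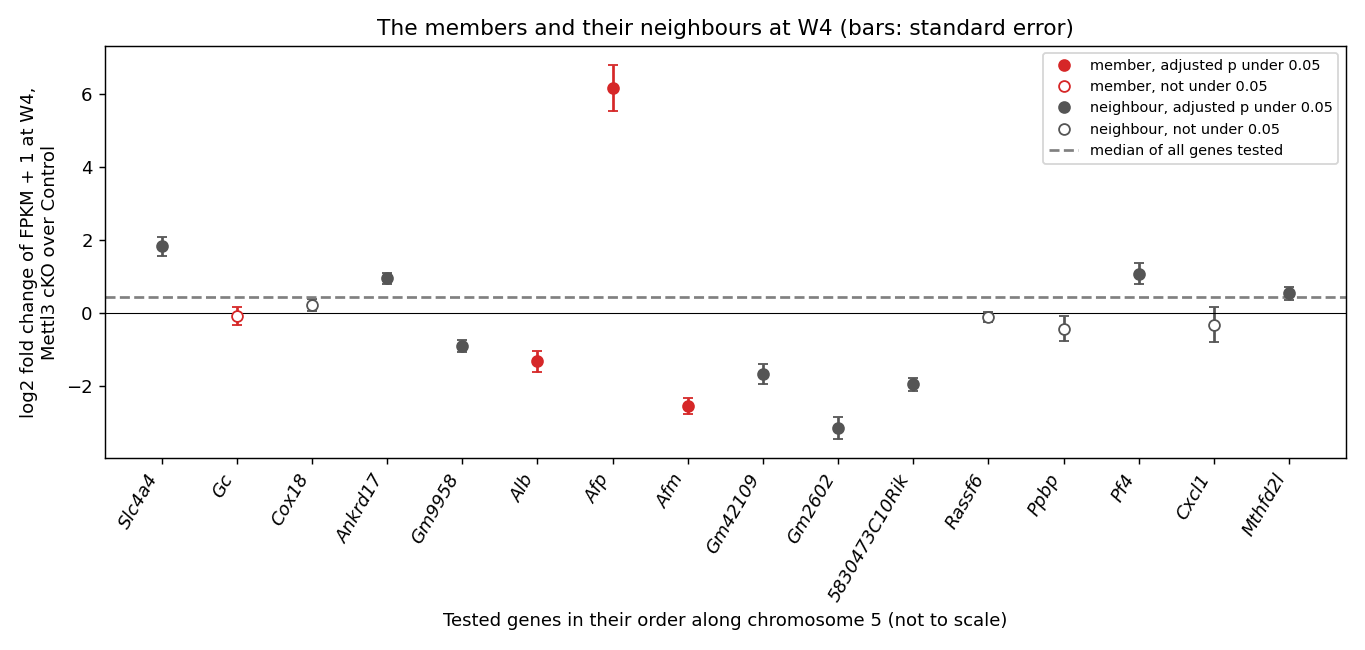
Log2 fold change of FPKM + 1 at W4, Mettl3 cKO over Control, for the tested genes around the members in chromosomal order, with bars of 1 standard error, filled where the adjusted p was under 0.05, and a dashed line at the median of all genes tested. Afp (6.18) stood between Alb (-1.33) and Afm (-2.56); Gm43449, listed at 0 in both cKO libraries, is left out.

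Of 27 known or candidate regulators of the locus, 9 rose and 6 fell at W4, where 46.9% of all genes rose and 12.4% fell, with a median log2 fold change of 0.18 beside 0.44 over all genes. At W2, 10 rose, where 24.6% of all genes did, but 5 passed on the nuclear scale or with W2 fitted alone, 3 without W2 Control replicate 1 and 4 without W2 cKO replicate 1. Among the activators, Cebpa was at 30.2 and 29.5 FPKM in W4 cKO livers, against 135 and 76.9 FPKM in Control (-1.74, adjusted p = 0.000221). Hnf4a was at 74.9 and 94.4 FPKM in W4 cKO livers, against 156 and 124 FPKM in Control (-0.72, adjusted p = 0.0044), and did not pass without W4 cKO replicate 1 (adjusted p = 0.0536). Both were lower at W4 without overlap, as was Dbp, a circadian factor that binds the Alb promoter (-2.33, adjusted p = 5.61e-05). By FPKM they lay the other way at W2. The W2 Control libraries had the most mitochondrial FPKM (58.1 and 59.0%, against 25.2 and 43.8% in W2 cKO). Values on the nuclear scale are not given for these genes. Cebpa was then at 75.2 and 65.8 FPKM in cKO, against 25.4 and 34.1 FPKM in Control. Hnf4a was at 80.3 and 79.2 FPKM in W2 cKO, against 54.7 and 62.0 FPKM in W2 Control (0.45, adjusted p = 0.0824). Hnf4a did not pass at P1 or W1 (-0.15 and -0.13).
Not all activators were lower at W4, the age of the values that follow. Nr5a2, a nuclear receptor that activates Afp, differed by 1.08 (adjusted p = 3.56e-05). Foxa3 was at 28.9 and 36.2 FPKM in W4 cKO livers, against 23.2 and 11.6 FPKM in Control (0.94, adjusted p = 0.0134), and Foxa2 was at 10.3 and 8.94 FPKM in cKO, against 26.1 and 12.6 FPKM in Control (-0.86, adjusted p = 0.0313). Neither call was stable. Foxa3 did not pass after median-of-ratios rescaling (0.33, adjusted p = 0.317) or without W4 cKO replicate 2 (0.0896) or W4 Control replicate 2 (0.181), and Foxa2 did not pass without W4 cKO replicate 1 (0.0696), W4 cKO replicate 2 (0.129) or W4 Control replicate 1 (-0.36, adjusted p = 0.332).

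By FPKM the repressors of Afp were higher in W4 cKO than in W4 Control livers, although Zbtb20 differed by -0.02 after median-of-ratios rescaling. At this age 46.9% of all genes rose, and the median log2 fold change of all genes was 0.44. Zfhx3 was at 3.24 and 2.62 FPKM in W4 cKO livers, against 0.592 and 0.609 FPKM in Control (1.29, adjusted p = 1.1e-05). Zhx2 was at 6.78 and 4.46 FPKM in cKO, against 2.28 and 1.44 FPKM in Control (1.2, adjusted p = 0.00081). Zbtb20 was at 3.87 and 3.19 FPKM in cKO, against 2.26 and 2.37 FPKM in Control (0.45, adjusted p = 0.0171), and its call was lost with 0.1 FPKM added (0.0665), with W4 fitted alone (0.0755) and without W4 cKO replicate 1, W4 Control replicate 1 or W4 Control replicate 2. Zhx2, Zbtb20, Foxa2 and Foxa3 were singled out after their values had been seen. The levels are of transcripts in whole liver, and their part in the level of Afp was not tested.

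Of 10 genes known to be high in fetal liver, as Afp is, 8 were tested, and 4 rose at W4 (median 0.50 beside 0.44 over all genes), close to the 46.9% of all genes that did. One of the 4, Igf2bp3, did not pass after median-of-ratios rescaling (0.28, adjusted p = 0.222) or without W4 cKO replicate 1 (adjusted p = 0.0748). In Control all 8 fell between P1 and W4. Gpc3, a proteoglycan that is, like Afp, a marker of fetal liver and liver cancer, was at 81.7 and 44.4 FPKM in W4 cKO livers, against 0.243 and 0.323 FPKM in Control (5.58, adjusted p = 1.2e-06). H19, an imprinted long noncoding RNA gene, was at 106 and 62.9 FPKM in cKO, against 2.19 and 3.63 FPKM in Control (4.42, adjusted p = 2.41e-06). Both were higher in replicate 1 of the cKO libraries, the one with more Afp.
Cd24a, a surface protein gene of progenitor cells, was at 47.9 and 23.7 FPKM in cKO, against 1.48 and 0.906 FPKM in Control (4.00, adjusted p = 2.25e-06). At W2, when Afp already stood apart, Gpc3 was at 31.3 and 9.32 FPKM in cKO, against 3.23 and 1.57 FPKM in Control. H19 then overlapped, at 903 and 419 FPKM in cKO, against 748 and 394 FPKM in Control, and so the fetal genes did not part from Control at the same age.

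**Figure D5:**
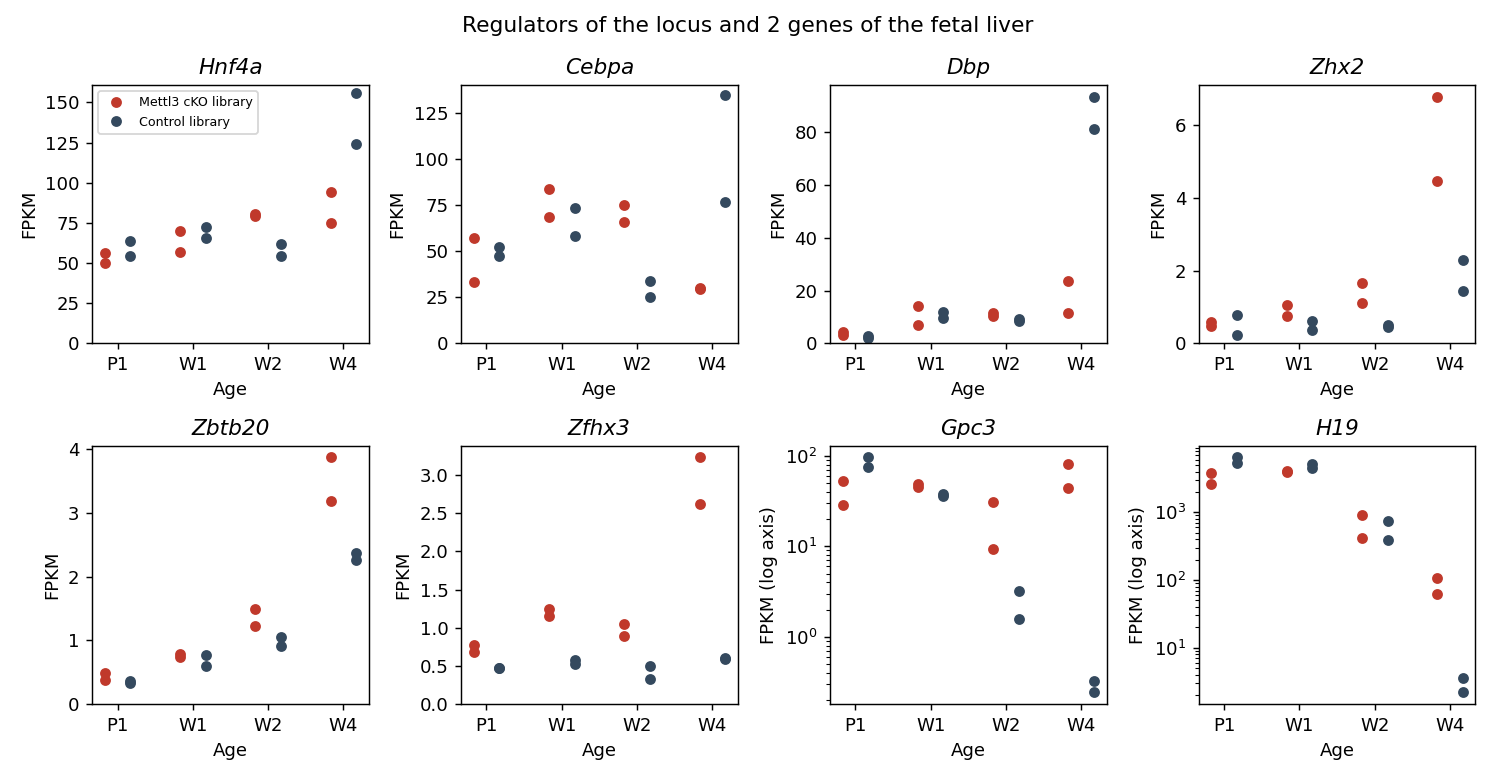
FPKM of activators (Hnf4a, Cebpa, Dbp) and repressors (Zhx2, Zbtb20, Zfhx3) known for the locus, and of Gpc3 and H19 (log axes), at each age, 1 point per library, Mettl3 cKO left of Control. At W4 these 3 activators lay lower, which Foxa3 and Nr5a2 did not, and the repressors lay higher in cKO (Zbtb20 by FPKM only, with -0.02 after median-of-ratios rescaling), and Gpc3 was at 81.7 and 44.4 FPKM in cKO and at 0.243 and 0.323 FPKM in Control.

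Other plasma protein genes did not all follow Alb. Of 32 such genes, 5 rose and 12 fell at W4 (median -0.58), where 46.9% of all genes rose and 12.4% fell. At W2, 16 rose, where 24.6% of all genes did, but 10 passed without the filter, 7 with W2 fitted alone and 9 without W2 cKO replicate 1. Ttr, which carries thyroid hormone and retinol-binding protein, was at 1804 and 2045 FPKM in W4 cKO livers, against 7720 and 8539 FPKM in Control (-2.08, adjusted p = 1.61e-05). Hpx, the haem scavenger hemopexin, went the other way, with 5329 and 5245 FPKM in W4 cKO livers, against 1705 and 1239 FPKM in Control (1.86, adjusted p = 0.000136).
Of 13 genes that handle the members or their ligands, 8 were tested and 4 fell at W4 (median -0.50), where 12.4% of all genes fell. B2m, a subunit of the neonatal Fc receptor that recycles albumin, fell by 1.45 (adjusted p = 0.000206), while Fcgrt, the other subunit, was at 86.7 and 90.0 FPKM in cKO, against 74.4 and 54.6 FPKM in Control, and did not pass (0.46, adjusted p = 0.187). Cyp27a1, a sterol and vitamin D hydroxylase, fell by 1.2 (adjusted p = 0.00154), and Cyp4f14, the mouse vitamin E hydroxylase, fell by 3.08 (adjusted p = 0.000174).

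Markers of other cells moved with these changes at W4, an age at which 46.9% of all genes rose and 12.4% fell. Of 14 hepatocyte genes 9 fell and 0 rose, and their summed level was 6620 to 7450 FPKM in cKO, against 14725 to 16573 FPKM in Control. Ductal markers summed to 234 to 336 FPKM in W4 cKO livers, against 29 to 31.2 FPKM in Control, and 8 of 9 tested rose. Stellate markers (10 of 10 rose) summed to 306 to 469 FPKM in cKO, against 49.2 to 53.7 FPKM in Control, macrophage markers (10 of 10) to 517 to 579 FPKM, against 119 to 182 FPKM in Control, and endothelial markers (8 of 8) to 164 to 178 FPKM, against 53.2 to 55.1 FPKM in Control. Red cell precursor genes (0 rose and 4 of 11 fell) summed to 234 to 244 FPKM in cKO, against 301 to 362 FPKM in Control. The part of this shift in the levels of Alb, Afp, Afm and Gc was not tested.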

How the data were processed

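Total RNA of whole livers was sequenced from 2 individuals per genotype and age. The methods and labels name HISAT2 as the aligner and mm10 as the genome, whereas the counter, its annotation and any use of strand are not given in these sources. The authors deposited FPKM, which are normalised by gene length and mapped reads, and 0 columns were left unmatched to a sample. The filter asked for 1 FPKM in 2 or more libraries. After adding 1 FPKM, log2 values went into limma 3.58.1 (R 4.3.3), with 1 mean per group of 16 libraries, a variance trend and Benjamini-Hochberg adjustment over 14913 genes. A gene passed, rose or fell at an adjusted p under 0.05. Log2 fold changes are those of FPKM + 1 and understate low genes. SE is the limma standard error and intervals are at 95%.

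Alternatives were no filter, 0.1 FPKM added, median-of-ratios rescaling, division by the summed FPKM of nuclear genes with and without the members, the replicate block, a term for sex, each age alone, the study's threshold (log2 change beyond 1 and p under 0.05), and each library left out. The term for sex rests on the 2 P1 Control libraries, the only group with both sexes. Genotype by age, the difference of the developmental changes and named genes outside the cluster were added to the alternatives after the data had been seen. Depth was estimated from the steps of low FPKM with GENCODE M21 lengths: 1 read in 2 kb was worth 0.0327 to 0.0469 FPKM, and 66.3 to 76.7% of low values were whole reads to within 0.05, so read numbers are approximate. The fit was also run on simulated libraries with 200 changed genes, and the outcome is not reported here. These libraries held no shift of scale between cKO and Control, so that run cannot speak to such shifts.

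The 4 members and the 11 gene lists were chosen with earlier results of these data known. Named genes are the members, Mettl3, Hnf4a, the top 4 of each list by adjusted p over the ages, tested genes within 500 kb of the cluster and the 5 most alike for each member. Pearson r was taken over log2 values.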

Additional observations from a re-analysis of the deposited data

Results flagged for a closer look

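For each member the difference between cKO and Control differed among the 4 ages by the joint limma test, with an adjusted p of 0.000503 for Afp, 0.000756 for Afm, 0.0121 for Alb and 0.0234 for Gc. Of all genes, 49.6% passed this test. Alb did not pass it without the filter on low values (0.876) or with 0.1 FPKM added (0.0745), and Gc did not on the nuclear scale (0.172), without the filter (0.128) or with the term for sex (0.0584). The change between P1 and W4 also differed between the genotypes for Afp, by 6.85 on the log2 scale, and for Afm, by -1.90. Sex and age cannot be told apart in the cKO part of these differences. At 2 libraries per group no group was large enough for a check of single outlying libraries.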

How the results depend on the processing

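The differences of Afp and Afm at W4, of Afp at W2, their means over ages and their joint tests kept direction and call under the alternatives run and with each library left out. Afm at W1 (-0.81) was not called without the filter (-0.81), with 0.1 FPKM added (-0.81), on the nuclear scale (-0.71, or -0.72 without the members), with the term for sex (-1.12) or fitted alone (-0.81), and ranged from -1.01 to -0.60 with a library left out. Afm at W2 was called with 0.1 FPKM added (-0.60), after rescaling (-0.97) and on the nuclear scale (-1.10, or -1.08 without the members), and ranged from -0.82 to -0.37. Gc at W2 lost its call without the filter (0.78), fitted alone (0.78), after rescaling (0.40) and on the nuclear scale (0.27, or 0.29 without the members), and ranged from 0.57 to 0.99. Alb at W4 lost its call without the filter and fitted alone (-1.33 both). After rescaling Gc at W4 was called (-0.71; -0.27 to 0.11 with a library left out), as were the means of Alb (-0.62; -0.39 on the nuclear scale, -0.41 without the members) and Gc (-0.32; -0.099 to 0.0069) and Alb in Control between P1 and W4 (0.89). Afm in Control between P1 and W4 was not called without the filter (0.56) and ranged from 0.41 to 0.72, and its change in cKO was not called with the term for sex (-1.02). Alb in cKO between P1 and W4 was called on the nuclear scale without the members (-0.61). The difference of these changes was called for Alb after rescaling (-1.54) and on the nuclear scale (-0.998, or -1.05 without the members), and for Gc it turned to -0.24 after rescaling. The joint test gave for Alb 0.876 without the filter and 0.0745 with 0.1 FPKM added, and for Gc 0.128 without the filter, 0.172 on the nuclear scale, 0.163 without the members and 0.0584 with the term for sex (0.0138 to 0.0788 with a library left out). Zbtb20 at W4 turned to -0.0236 after rescaling. Of other genes named at W4, Pf4 and Mthfd2l near the cluster, and Igf2bp3 were not called after rescaling. In the other cases the cause was not tested.

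Replicate numbers did not pair the samples (correlation of deviations 0.015, 0.135, 0.019 and 0.086 at the 4 ages). The replicate block brought Afm at W2 past the threshold (-0.59, adjusted p = 0.0386) and changed no other call of a member.

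Genes called at P1 (25) were 98 without the filter, 39 on the nuclear scale, 12 with the term for sex, 1 fitted alone and 220 by the study's threshold, and 2 to 22 with a library left out. At W1 (720) they were 18 with the term for sex and 223 to 292 with a library left out. At W2 (4344) they were 2603 fitted alone, 1875 by the study's threshold and 2089 to 4437 with a library left out. By the study's threshold there were 4721 at W4 (8833), 631 for the mean (7512), 4319 in Control (8114) and 4348 in cKO (8511) between P1 and W4, and with the term for sex 3674 for the mean and 4550 in cKO. Rescaling changed the split of W4 calls to 3783 higher and 3725 lower, against 6989 and 1844. Depth limits Afp in W4 Control, which rests on about 71.0 and 113 reads, and with 2 libraries per group the spread is pooled over all groups.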
